A study of Mus musculus with 12 samples.

Results

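The genes of the proteasome were followed through total RNA and ribosome-bound RNA of mouse sensory neurons. The members are all genes of the deposited table whose symbol begins with Psma, Psmb, Psmc, Psmd or Psme and a digit, pseudogenes left out. Of the 14675 gene IDs in the table, 42 met this rule, namely 17 genes of the core particle, 7 of the Psmc series, 14 of the Psmd series and 4 activators. Psma8, Psmb11 and Psme2b have such symbols and were not among the rows.

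The proteasome is the protease that degrades proteins marked with ubiquitin. Its core particle is a stack of alpha and beta rings that encloses the peptidase sites, and its regulatory particle recognises ubiquitin, removes it, unfolds the protein and threads it into the core. The base of the regulatory particle holds a ring of ATPases and ubiquitin receptors, and the lid holds the deubiquitinase. In injured axons the proteasome is known for the local turnover of signalling and cytoskeletal proteins.

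The material came from adult dorsal root ganglion (DRG) neurons of RPL22HA+/+;Advillin-Cre+ mice. In these RiboTag mice the Advillin-driven Cre switches on an HA tag on the ribosomal protein RPL22, so that ribosomes of sensory neurons can be pulled down through the tag. Input is total RNA, which also holds RNA of other ganglion cells, and IP is the RNA recovered with the anti-HA antibody. Each fraction has a group with AAV-shGpr151, a virus that carries a short hairpin RNA against the receptor gene Gpr151, and a group with AAV-shGpr151 plus AAV-e5'UTR (e5UTR below). All 4 groups carry the hairpin, the labels do not describe the e5'UTR insert, and a group with a non-targeting hairpin was not analysed here. The series text speaks of neurons cultured after a conditioning injury of the sciatic nerve and the extraction protocol of freshly collected ganglia, so which material was sequenced is unsettled. The sources used here give no sex, exact age or number of mice.

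Each group has 3 columns of estimated counts. These differed by little more than counting noise: the chi-square of the median gene between columns was 1.08 to 1.12 times its value from counting, and that of the median member was 0.994 to 1.04 times. The 3 columns were therefore summed and counted as 1 sample, a pool, which leaves 2 pools per fraction. Columns held 975403 to 985277 counts in input and 1381220 to 1517685 in IP. The summed level of 10 sensory neuron markers was 3903 and 3842 CPM in the input pools, and 8060 and 8469 CPM in the IP pools. CPM are pooled counts over the library size after scaling by TMM, which is described below. Summed markers of other cells were lower in IP, going from 154 and 155 CPM to 49.2 and 44.9 CPM for 10 macrophage and immune markers, from 1459 and 1544 to 274 and 256 CPM for 5 satellite glia markers, from 612 and 604 to 234 and 221 CPM for 5 Schwann cell markers, from 313 and 310 to 69 and 87.4 CPM for 5 fibroblast markers, and from 2329 and 2279 to 2.29 and 3.08 CPM for 4 erythroid markers. The satellite glia marker Glul went the other way (log2 1.98). The Schwann cell marker Pmp22 was level, with 203 and 206 CPM in input and 207 and 189 CPM in IP, most of the Schwann cell sum in IP. The fibroblast marker Col3a1 (log2 0.30) was not called. The part of these cells in the results below was not tested. Snap25 was the 1 neuron marker lower in IP (log2 -1.16), and Isl1 was not called (log2 -0.01). Uchl1 made up the largest part of the neuron sum, with 2143 and 2081 CPM in input and 3203 and 3526 CPM in IP. Gpr151 had 7, 16 and 12 counts in the shGpr151 input, 8, 9 and 12 in the e5UTR input, 37, 37 and 34 in the shGpr151 IP, and 34, 44 and 50 in the e5UTR IP.

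Setting IP against input asked which proteasome mRNAs the tagged ribosomes carried. The mRNAs of the regulatory particle were higher in IP than in input, by 1.82-fold at the median, whereas those of the core particle lay near the median of all genes. The members held 0.39% of all counts in the shGpr151 input (exact binomial 95% interval 0.383 to 0.397). In the e5UTR input they held 0.394% (0.386 to 0.401). In IP they held 0.846% in shGpr151 (0.837 to 0.855) and 0.921% with e5UTR (0.912 to 0.93). These are shares of the library total, by which the log2 ratio of the median gene is 0.89 higher than by TMM. On the TMM scale the summed members had an IP over input ratio of 1.16 in shGpr151 and 1.27 with e5UTR. Of the 41 members that passed the filter on low counts, 18 were higher and 5 lower in IP at an adjusted p under 0.05 (edgeR's quasi-likelihood test on the 4 pools, Benjamini-Hochberg over all genes), and 18 were not called. Over all 11343 genes tested, 28.0% were higher and 32.2% lower. The median log2 ratio was 0.30 over the members and 0.05 over all genes. Both IP pools stood above both input pools for 25 members and below them for 10, against 41.3% and 39.8% of all tested genes. In bulk RNA such as the input, fewer cells of a type and less RNA per cell cannot be told apart.

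The sign of a small ratio depends on the scaling. Scaled by library total in place of TMM, the log2 ratio of the median gene moved up by 0.89 and the called genes went from 46.5% to 73.1% higher in IP. Ratios below are relative to the TMM scale, in which most genes are taken to be equal. The difference between subunits does not depend on that choice.

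**Figure D1:**
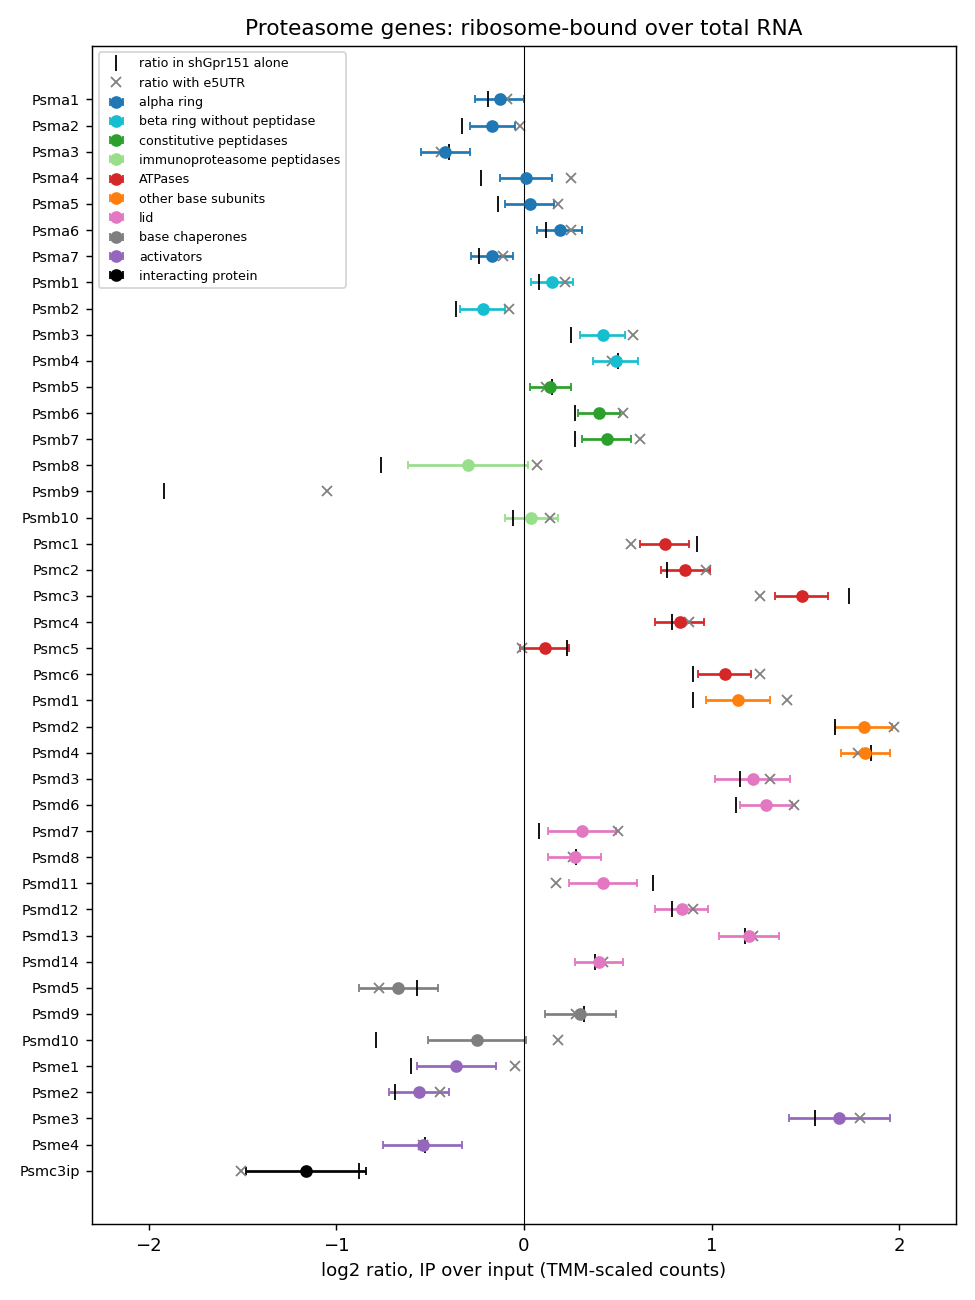
Log2 IP over input for each proteasome gene, grouped by its place in the complex, on the TMM scale. Points with bars are the fitted value ± SE over the 4 pools. The ticks (shGpr151 alone) and crosses (with e5UTR) are the ratios of each treatment's own pools. By fitted value the regulatory particle sits to the right of the alpha ring except Psmc5 (0.11), which lies left of Psma6 (0.19).

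The alpha ring forms the outer rings of the core and its gate. None of its 7 genes was higher in IP on the TMM scale, whereas by library total all 14 core genes were, and their TMM log2 ratios ran from -0.42 to 0.19 with a median of -0.13. Psma3 was the 1 gene called lower (log2 -0.42 ± 0.13 SE, adjusted p = 0.012). Its counts were 166, 174 and 186 in the shGpr151 input, 204, 193 and 215 in the e5UTR input, 364, 337 and 341 in the shGpr151 IP, and 393, 428 and 463 in the e5UTR IP. Per scaled library these are 243 and 283 CPM in input and 184 and 208 CPM in IP, so both IP pools lay below both input pools. The call was lost without the e5UTR input pool (adjusted p = 0.29), the shGpr151 IP pool (0.093) or the e5UTR IP pool (0.058), and by library total Psma3 stood above 0, at log2 0.46. It overlaps 3110056K07Rik in the RefSeq annotation, and since the use of strand in counting is not given, reads of the pair may not be separated. Psma6 had the highest ratio of the ring (0.19 ± 0.12, adjusted p = 0.19), with 160 and 151 CPM in input and 174 and 180 CPM in IP.

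The beta genes without a peptidase site, Psmb1 to Psmb4, shape the inner rings. Psmb4 and Psmb3 were higher in IP, at log2 0.49 ± 0.12 (adjusted p = 0.0033) and 0.42 ± 0.12 (adjusted p = 0.0091). Psmb4 had 157 and 155 CPM in the input pools and 223 and 215 CPM in the IP pools. Psmb3 had 417 and 392 CPM against 497 and 586 CPM. The groups did not overlap for either gene, but without the shGpr151 input pool (adjusted p = 0.073 for Psmb4 and 0.085 for Psmb3) or the e5UTR input pool (0.084 and 0.17) neither was called. Psmb1 (log2 0.15) and Psmb2 (log2 -0.22) were not called.

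The 3 constitutive peptidases cut the peptide chain with different preferences. Psmb6, the caspase-like subunit, had the most counts of all members in every pool. Its columns held 416, 411 and 395 counts in the shGpr151 input, 406, 386 and 384 in the e5UTR input, 1273, 1291 and 1307 in the shGpr151 IP, and 1718, 1563 and 1563 in the e5UTR IP. The pools were at 565 and 544 CPM in input and at 683 and 786 CPM in IP, all IP above all input (log2 0.40 ± 0.11, adjusted p = 0.0083). Psmb7, the trypsin-like subunit, rose by a like amount from 155 and 132 CPM to 188 and 204 CPM (log2 0.44 ± 0.13, adjusted p = 0.01). Psmb5, the chymotrypsin-like subunit, had 229 and 237 CPM in input and 255 and 257 CPM in IP and was not called (log2 0.14 ± 0.11, adjusted p = 0.3). The calls of Psmb6 and Psmb7 were lost without the e5UTR input pool (adjusted p = 0.16 and 0.24), and that of Psmb6 also without the shGpr151 input pool (0.11).

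The immunoproteasome peptidases Psmb8, Psmb9 and Psmb10 take the places of Psmb5, Psmb6 and Psmb7 in immune cells and after interferon. None was called in either direction. Psmb10 was level on the TMM scale, with 62.4 and 56.5 CPM in input and 60 and 62.4 CPM in IP (log2 0.04 ± 0.14). Psmb8 had 8, 6 and 8 counts in the shGpr151 input, 5, 2 and 13 in the e5UTR input, 11, 16 and 7 in the shGpr151 IP, and 21, 17 and 22 in the e5UTR IP, and its pools overlapped between the fractions on the CPM scale. Psmb9 did not pass the filter, with 13, 8, 9 and 11 counts in the 4 pools, and its IP over input ratio was 0.264 (95% interval 0.0997 to 0.668) in shGpr151 and 0.482 (0.177 to 1.38) with e5UTR. Markers of macrophages and immune cells were lower in IP for 7 of the 8 tested. The eighth, Csf1r, stood at log2 1.36 ± 0.55 and was not called (adjusted p = 0.051), its input pools holding 4 and 9 counts and its IP pools 62 and 29. The part of these cells in the values was not tested.

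The ATPases Psmc1 to Psmc6 form the ring that unfolds the substrate. Of the 6, 5 were higher in IP, with a median log2 ratio of 0.84. Psmc3 led them with 48, 43 and 46 counts in the shGpr151 input, 64, 56 and 55 in the e5UTR input, 375, 398 and 414 in the shGpr151 IP, and 412, 368 and 416 in the e5UTR IP. This is 63.4 and 81 CPM in input against 210 and 194 CPM in IP (log2 1.48 ± 0.14, adjusted p = 3.1e-06). Psmc6 (1.07), Psmc2 (0.86), Psmc4 (0.83) and Psmc1 (0.75) followed, each with both IP pools above both input pools. Psmc5 alone in the ring was not called: its pools had 170 and 206 CPM in input and 199 and 206 CPM in IP, which overlap (log2 0.11 ± 0.13, adjusted p = 0.49).

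The 3 other base subunits include the largest ratios of the complex. Psmd4, the ubiquitin receptor that binds chains through its ubiquitin-interacting motifs, had 57, 40 and 34 counts in the shGpr151 input, 39, 47 and 44 in the e5UTR input, 432, 398 and 408 in the shGpr151 IP, and 412, 440 and 424 in the e5UTR IP. Its level was 60.6 and 60.2 CPM in input and 219 and 207 CPM in IP, 3.52-fold higher (log2 1.82 ± 0.13, adjusted p = 1.8e-07). Psmd2, a scaffold of the base that also binds ubiquitin and ubiquitin-like shuttle proteins, had 35, 25 and 25, then 26, 26 and 26 counts in the input groups, and 233, 224 and 247, then 287, 276 and 307 in the IP groups. Its level was 39.3 and 36.1 CPM in input and 124 and 141 CPM in IP (log2 1.81 ± 0.15, adjusted p = 6.1e-07). Psmd1, the scaffold on which the receptor Adrm1 docks, went from 31.5 and 24.5 CPM to 58.6 and 64.7 CPM (log2 1.14 ± 0.17, adjusted p = 0.00013). In each of these genes the lowest IP level exceeded the highest input level.

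The lid has 8 members in the table, of which 5 were higher in IP and none lower. Psmd6 (log2 1.29 ± 0.14, adjusted p = 1.1e-05) had the largest ratio, with 50.4 and 46.7 CPM in input and 110 and 127 CPM in IP. Psmd3 (1.22), Psmd13 (1.20) and Psmd12 (0.84), scaffolds of the lid, were also called. Psmd14 is the deubiquitinase that removes the chain as the substrate enters. Its 48, 40, 39 and 46, 44, 37 counts in the input groups stood against 147, 138, 149 and 160, 160, 166 in the IP groups, or 58.7 and 58.8 CPM against 76.6 and 78.8 CPM. This was the smallest called ratio of the lid (log2 0.40 ± 0.13, adjusted p = 0.022), and it was not called by DESeq2 (adjusted p = 0.16) or without the shGpr151 input pool (adjusted p = 0.18) or the e5UTR input pool (adjusted p = 0.17). Psmd11 (0.42), its partner in the deubiquitinase module Psmd7 (0.31) and Psmd8 (0.27) were not called.

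**Figure D2:**
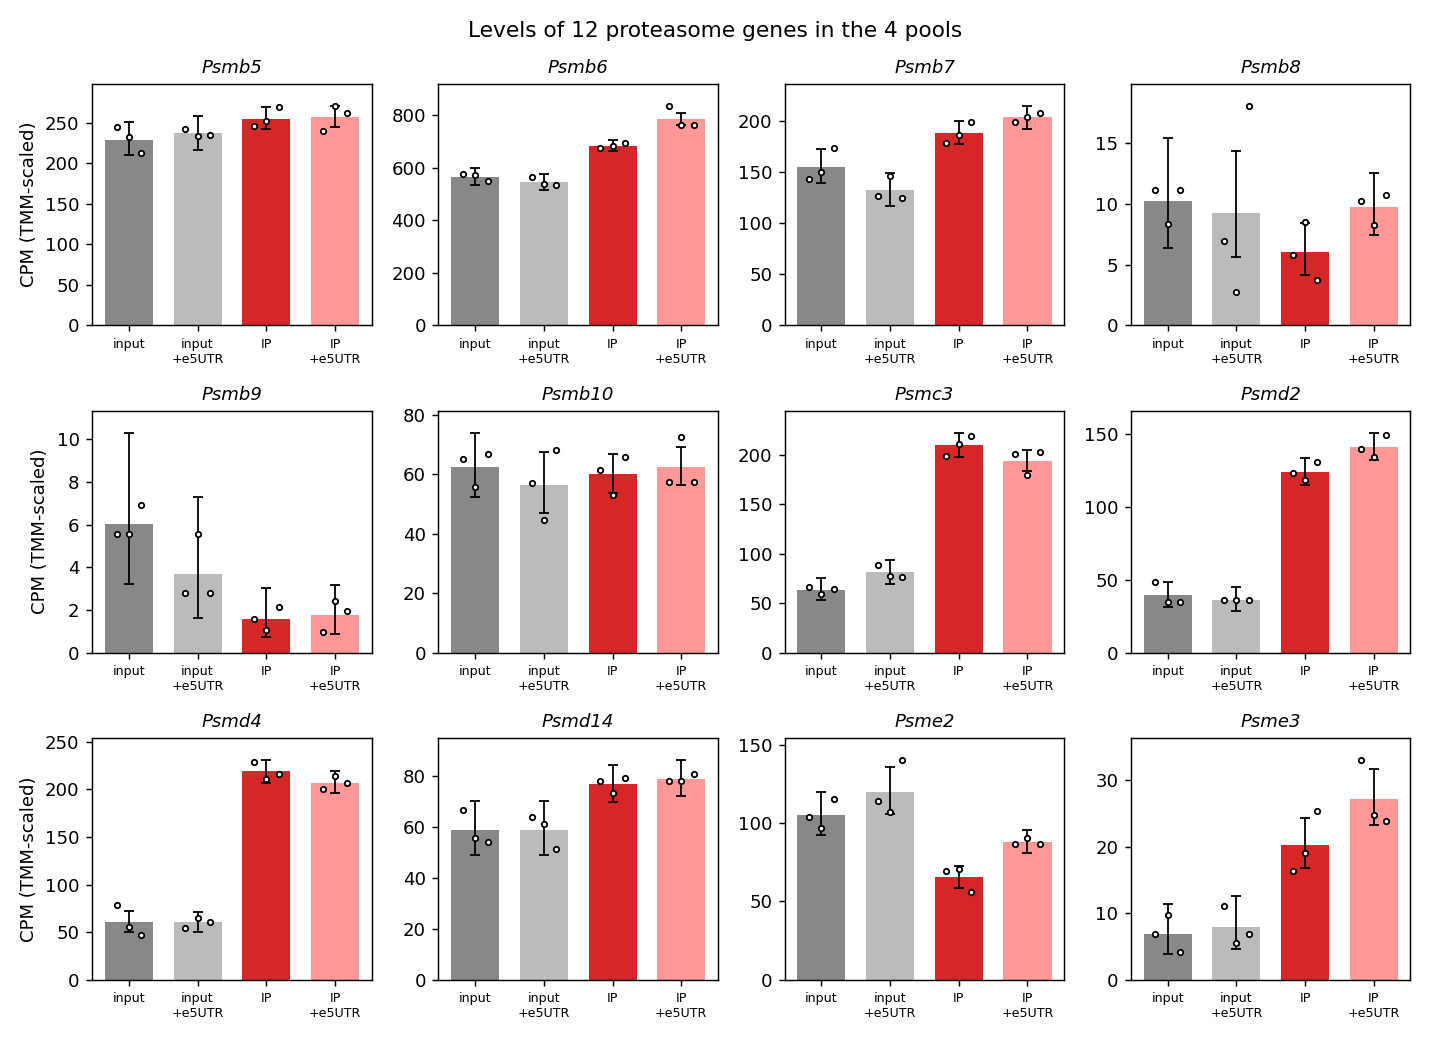
Levels (CPM on the TMM scale, axes from 0) of 12 proteasome genes: bars are the 4 pools with exact Poisson 95% intervals, and points are the 3 columns of each. Psmd4, Psmd2, Psmc3 and Psme3 have the largest IP over input ratios of the 12, with all points of IP above all points of input. The points of Psmb6, Psmb7 and Psmd14 are apart as well, by less.

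The base chaperones Psmd5, Psmd9 and Psmd10 hold assembly intermediates of the ATPase ring and leave the finished particle. They did not follow the base: Psmd5 was lower in IP, with 21.3 and 22.7 CPM in input and 14.3 and 13.3 CPM in IP (log2 -0.67 ± 0.21, adjusted p = 0.016), and Psmd9 (0.30) and Psmd10 (-0.25) were not called. Without the e5UTR input pool (adjusted p = 0.1) or the e5UTR IP pool (adjusted p = 0.089) Psmd5 was not called, and by library total it was at log2 0.22. Psmd10 overlaps Atg4a in the annotation.

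Activators cap the core in place of the regulatory particle. Psme3, which forms a cap in the nucleus, was higher in IP, with 5, 7 and 3 and 8, 4 and 5 counts in the input groups and 31, 36 and 48 and 68, 51 and 49 in the IP groups. Its level was 6.94 and 7.87 CPM in input and 20.3 and 27.2 CPM in IP (log2 1.68 ± 0.27, adjusted p = 0.00023). Psme2, which with Psme1 forms the interferon-inducible cap, was lower, with 105 and 120 CPM in input and 65.3 and 87.9 CPM in IP (log2 -0.56 ± 0.16, adjusted p = 0.01). Psme1 was at log2 -0.36 and not called, with pools of 36.5 and 24.1 CPM in input and 24.2 and 23.2 CPM in IP. Psme4, a single large protein that caps the core, was at 22.7 and 21.8 CPM in input and 15.7 and 14.9 CPM in IP (log2 -0.54 ± 0.21, adjusted p = 0.04). By library total Psme2 and Psme4 were above 0, at log2 0.33 and 0.35. Leaving out 1 pool, Psme4 lost its call in each of the 4 cases (adjusted p from 0.07 to 0.18), and Psme2 without the e5UTR input pool (0.1) or the shGpr151 IP pool (0.086). Psme1 overlaps Emc9 and Psme4 overlaps Erlec1 in the annotation. Of the 8 immune markers tested, 7 were lower in IP, as Psme2 was, and Csf1r stood the other way (log2 1.36, not called). The part of immune cells was not tested.

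Psmc3ip meets the symbol rule but encodes a meiotic recombination factor named for binding Psmc3, and is no subunit. It had the lowest ratio of all members, with 9, 6 and 11 and 8, 8 and 9 counts in the input groups and 13, 14 and 10 and 6, 6 and 13 in the IP groups. Per scaled library this is 12 and 11.6 CPM in input and 6.53 and 4.05 CPM in IP (log2 -1.16 ± 0.32, adjusted p = 0.0085). The call rests on few counts and was not made by DESeq2 (adjusted p = 0.065) or without the e5UTR IP pool (adjusted p = 0.059), by library total the log2 ratio was -0.27 (adjusted p = 0.45), and Psmc3ip overlaps Mlx in the annotation.

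Core and regulatory genes were then set side by side, with the immunoproteasome, the chaperones and Psmc3ip left out. Of 17 regulatory genes 13 were higher in IP and none lower, and of 14 core genes 4 were higher and 1 lower. The median log2 ratio was 0.86 for regulatory genes (range 0.11 to 1.82) and 0.09 for core genes (range -0.42 to 0.49), a difference of 0.78 before rounding. The ratio of 12 regulatory genes exceeded that of Psmb4, the highest core gene, and all 17 exceeded the core median. This is a description of the genes of 1 complex, which share their libraries, and no test of the gene groups was made. Leaving out 1 pool at a time gave a difference of 0.71 to 0.89. The 4 core calls fell to 1 without the shGpr151 input pool and to 0 without the e5UTR input pool, and rose to 7 without the e5UTR IP pool.

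The share of regulatory genes among the counts of both groups needs no library scaling. Regulatory genes held 20.8% of these counts in the shGpr151 input (95% interval 20.01 to 21.55) and 21.7% in the e5UTR input (20.94 to 22.5). In IP they held 32.5% in shGpr151 (32.01 to 33.01) and 30.4% with e5UTR (29.91 to 30.81). The columns, close to parts of 1 pool in each group, ran from 19.9% to 22.3% in input and from 29.4% to 33.1% in IP. Summed over its genes, the core particle had an IP over input ratio of 1.01 (0.986 to 1.04) in shGpr151 and 1.15 (1.13 to 1.18) with e5UTR, and the regulatory particle 1.86 (1.78 to 1.95) and 1.81 (1.73 to 1.9). Across 41 members, those left out of the comparison included, log2 IP over input and log2 mean CPM had a Pearson r of 0.08 and a Spearman rho of 0.04. For the core and regulatory genes alone this was not computed. Core genes were the more abundant, with a summed input level of 3958 and 3923 CPM against 1038 and 1088 CPM for regulatory genes. The part of abundance in the difference was not tested.

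**Figure D3:**
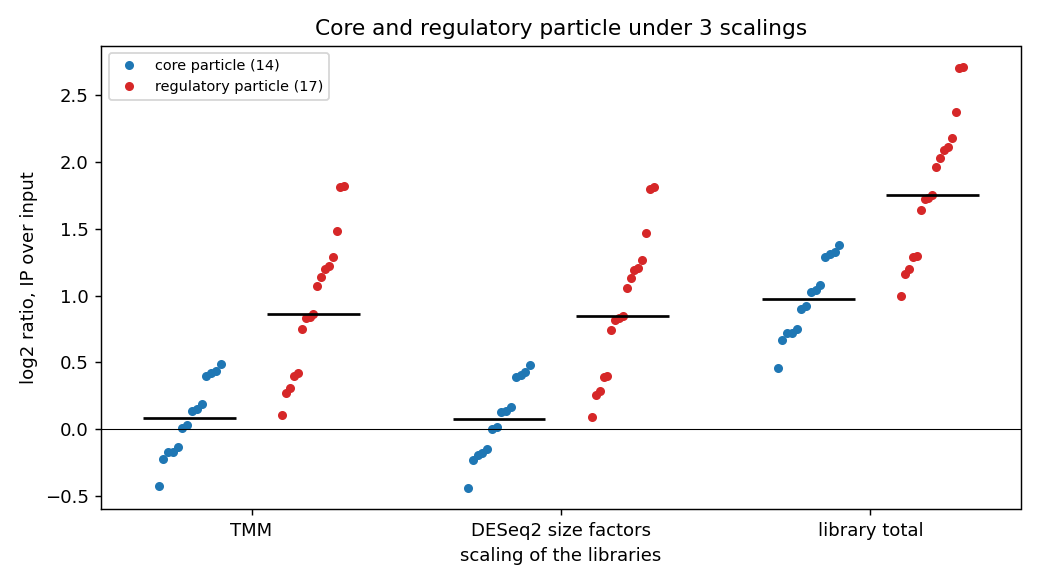
Log2 IP over input of core and regulatory genes under TMM, DESeq2 size factors and library total; each point is a gene and the line is the median. All genes move up together by library total and the gap between the groups of genes remains.

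Across the settings tried, 13 members were called higher in each: Psmc1, Psmc2, Psmc3, Psmc4, Psmc6, Psmd1, Psmd2, Psmd3, Psmd4, Psmd6, Psmd12, Psmd13 and Psme3. All but Psme3 belong to the regulatory particle. The share of all genes called higher in every setting was not computed, so this count has no background. Of the 25 alternatives, 12 leave out only 1 column. Each of the 5 lower calls was lost without at least 1 of the pools.

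Promoters of these genes were read next, since 13 of the 17 regulatory genes were higher in IP. The motifs were chosen after the values were seen. RefSeq promoter windows (build GRCm38.p6, from 250 bases before to 50 after the start, 5′ to 3′ on the gene's strand) matched 36 of the 42 members. Psmb1, Psmb2, Psmb7, Psmc3, Psmd3 and Psmd7 had no window. CCGGAAG, the core of sites bound by ETS factors, was found on either strand (on the opposite strand it reads CTTCCGG) in 13 of these 36 genes (36.1%), against 9.93% of 27025 genes. Those are all genes with a RefSeq window, whether or not they were tested here. The share among tested genes was not computed. It lay in 9 of 14 regulatory genes with a window, Psmc1, Psmc2, Psmc6, Psmd2, Psmd4, Psmd6, Psmd11, Psmd12 and Psmd13. Of 14 core genes with a window, here counted with Psmb8, Psmb9 and Psmb10, 1 held it, Psma6. These are not the same 14 core genes as in the comparison above. Psmc3ip, Psme3 and Psme4 also held it. The sequences below show the match, in capitals, for the 9 regulatory genes from the largest to the smallest IP ratio, then for the activator Psme3 and for Psma6 as the 1 core gene. For Psmc2 and Psme3, which hold 2 matches, and Psma6, which holds 3, 1 match is shown, that with the lowest coordinate.
Psmd4, chr3:95042724-95042748, minus strand: acagctgttCCGGAAGctgctgcga
Psmd2, chr16:20651617-20651641, plus strand: cgcagggcgCTTCCGGtctggagga
Psmd6, chr14:14120975-14120999, minus strand: gagacgcgaCCGGAAGtcagactgg
Psmd13, chr7:140882379-140882403, plus strand: cccgcggtgCCGGAAGtgagcgagc
Psmc6, chr14:45329715-45329739, plus strand: gcgggccagCCGGAAGgggcggagc
Psmc2, chr5:21785182-21785206, plus strand: cagtgagcaCTTCCGGgatggggct
Psmd12, chr11:107479502-107479526, plus strand: agcgggcgaCTTCCGGtgcgagtga
Psmc1, chr12:100110165-100110189, plus strand: gtggatgcaCTTCCGGcggtggcga
Psmd11, chr11:80428595-80428619, plus strand: agggcgggtCTTCCGGgtgtgtgtt
Psme3, chr11:101316097-101316121, plus strand: gcacaaggcCCGGAAGctccgacag
Psma6, chr12:55398684-55398708, plus strand: agccaccacCCGGAAGcccgcggac

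The match began 125 bases before the start in Psmd4, 26 in Psmd2, 45 in Psmd6 and 6 in Psmd13. Regulatory genes with the motif ran from Psmd4 (log2 1.82) to Psmd11 (log2 0.42, not called). Psmd1 (1.14), Psmc4 (0.83), Psmd14 (0.40), Psmd8 (0.27) and Psmc5 (0.11) have a window without it. Whether the motif goes with the ratio was not tested. CCAAT was found in 14 of the 36 genes (38.9%), near its share of all genes (41.1%). TGACNNNGC, a core of the antioxidant response element to which Nfe2l1 and Nfe2l2 bind, was found in 6 (16.7%), against 14% of all genes. Its carriers were Psmb5, Psmb6, Psmc6, Psmd9, Psmd12 and Psme4, and those of the constitutive peptidases are shown.
Psmb5, chr14:54618025-54618051, minus strand: gtgaagttgTGACGTCGCggcgttgcc
Psmb6, chr11:70525339-70525365, plus strand: taaagagagTGACGGAGCgctttacga

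A match is a description of letters in the window and not a measured site.

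Genes that work with the proteasome were taken from a list of 30 assembly factors, shuttles, deubiquitinases and regulators outside the symbol rule. Of these, 29 were in the table; 16 were higher in IP (28.0% of all genes were), 2 lower (32.2%) and 11 not called, with a median log2 ratio of 0.62 against 0.05 over all genes. The ubiquitin shuttles Ubqln2 (log2 1.98 ± 0.25, adjusted p = 3.3e-05) and Ubqln1 (1.60 ± 0.20, adjusted p = 3.2e-05) were among the highest. Akirin2, which carries proteasomes into the nucleus, had 1.88 ± 0.36 (adjusted p = 0.00078), and Zfand5, which binds and activates the proteasome, 1.78 ± 0.19 (adjusted p = 5.5e-06). Nfe2l1, the transcription factor that raises proteasome genes when the proteasome is inhibited, was higher as well, from 34.2 and 27.8 CPM to 70.4 and 60.5 CPM (log2 1.08 ± 0.17, adjusted p = 0.00018). The core assembly factor Pomp had 0.35 ± 0.12 (adjusted p = 0.028), and the small lid protein Sem1 was not called (0.20 ± 0.10, adjusted p = 0.11).

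The 2 genes lower in IP were Psmg4, a chaperone of the alpha ring (log2 -0.66 ± 0.17, adjusted p = 0.0052), and Adrm1, the ubiquitin receptor that docks on Psmd1 (log2 -1.79 ± 0.38, adjusted p = 0.0016). Adrm1 had 10, 6 and 5 and 6, 9 and 10 counts in the input groups, but 21, 2 and 0 in the shGpr151 IP and 0, 8 and 5 in the e5UTR IP. The IP columns of Adrm1 thus ran from 0 to 21 counts and overlapped those of input.

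The second question was what AAV-e5'UTR added on top of the hairpin. Each side of this comparison is 1 pool, so there is no replicate check and no test. Ratios carry exact binomial 95% intervals that cover counting error only, and a gene is called past 1.5-fold. In input the proteasome genes were close to equal: none of the 42 was called higher with e5UTR (12.6% of all genes were) and 2 were called lower (12.1%). These were Psme1, with 29, 27 and 23 counts in shGpr151 and 16, 12 and 24 with e5UTR (ratio 0.659, 0.455 to 0.946), and Psmb9, with 4, 4 and 5 against 2, 4 and 2 (0.616, 0.221 to 1.6). The columns of Psme1 overlap, at 24 in the third e5UTR column and 23 in the third shGpr151 column. Members have more counts than most genes: the median pooled count in the shGpr151 input was 136 over the members and 21 over all tested genes. Counting noise thus takes fewer members than genes past the fold, and these shares are not like for like. The interval lay above 1 for Psma3 (1.16), Psmc3 (1.28, 1.02 to 1.61) and Psmc5 (1.22, 1.06 to 1.4), or 3 members against 2.35% of genes, and below 1 for Psme1 (2.64% of genes). Summed ratios were 0.991 (0.962 to 1.02) for the core particle and 1.05 (0.989 to 1.11) for the regulatory particle.

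In IP the core particle was slightly higher with e5UTR, by 1.13-fold when summed (1.11 to 1.15), and the regulatory particle was near 1 (1.02, 0.997 to 1.05). All members together had a ratio of 1.10 (1.08 to 1.11). With size factors from DESeq2 these sums were 1.08 for the core and 0.98 for the regulatory particle. Few members passed 1.5-fold: Psmb8 and Psmd10 higher (7.76% of all genes were) and Psmc3ip lower (9.64%). Here too members have more counts than most genes, so counting noise takes fewer of them past the fold. Psmd10, the chaperone also called gankyrin, had 28, 30 and 30 counts in shGpr151 and 53, 60 and 52 with e5UTR (ratio 1.72, 1.32 to 2.26). Columns of a group are close to parts of 1 pool, so their agreement is no replicate check. Psmb8 had 11, 16 and 7 against 21, 17 and 22 (1.62, 1.05 to 2.55). The interval of Psmc3ip included 1 (0.621, 0.358 to 1.06).

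Counting intervals lay above 1 for 17 members in IP (9.74% of all genes) and below 1 for 1, Psmc1 (11.2%). Members have more counts than most genes and hence narrower intervals: the median pooled count in the shGpr151 IP was 598 over the members and 53 over all tested genes. Of the 14 core genes 13 had a ratio above 1, and the interval of 9 lay above it. Psma5 had 310, 297 and 287 counts without e5UTR and 413, 403 and 398 with it (95% interval of the ratio 1.14 to 1.36). Psma2 was at 1.21 (1.13 to 1.3), Psma4 at 1.20 (1.06 to 1.35) and Psmb3 at 1.18 (1.12 to 1.24), and Psmb4 was the core gene below 1 (0.962, 0.89 to 1.04). Psmd7 of the lid had 109, 114 and 121 counts against 172, 167 and 184 (1.40, 1.22 to 1.61). Among activators Psme2 was at 1.35 (1.18 to 1.54) and Psme3 at 1.34 (1.05 to 1.72). The ATPase Psmc1 had 397, 406 and 381 counts against 359, 361 and 376, which is a ratio of 0.85 (0.783 to 0.924) once scaled for the larger IP library with e5UTR.

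**Figure D4:**
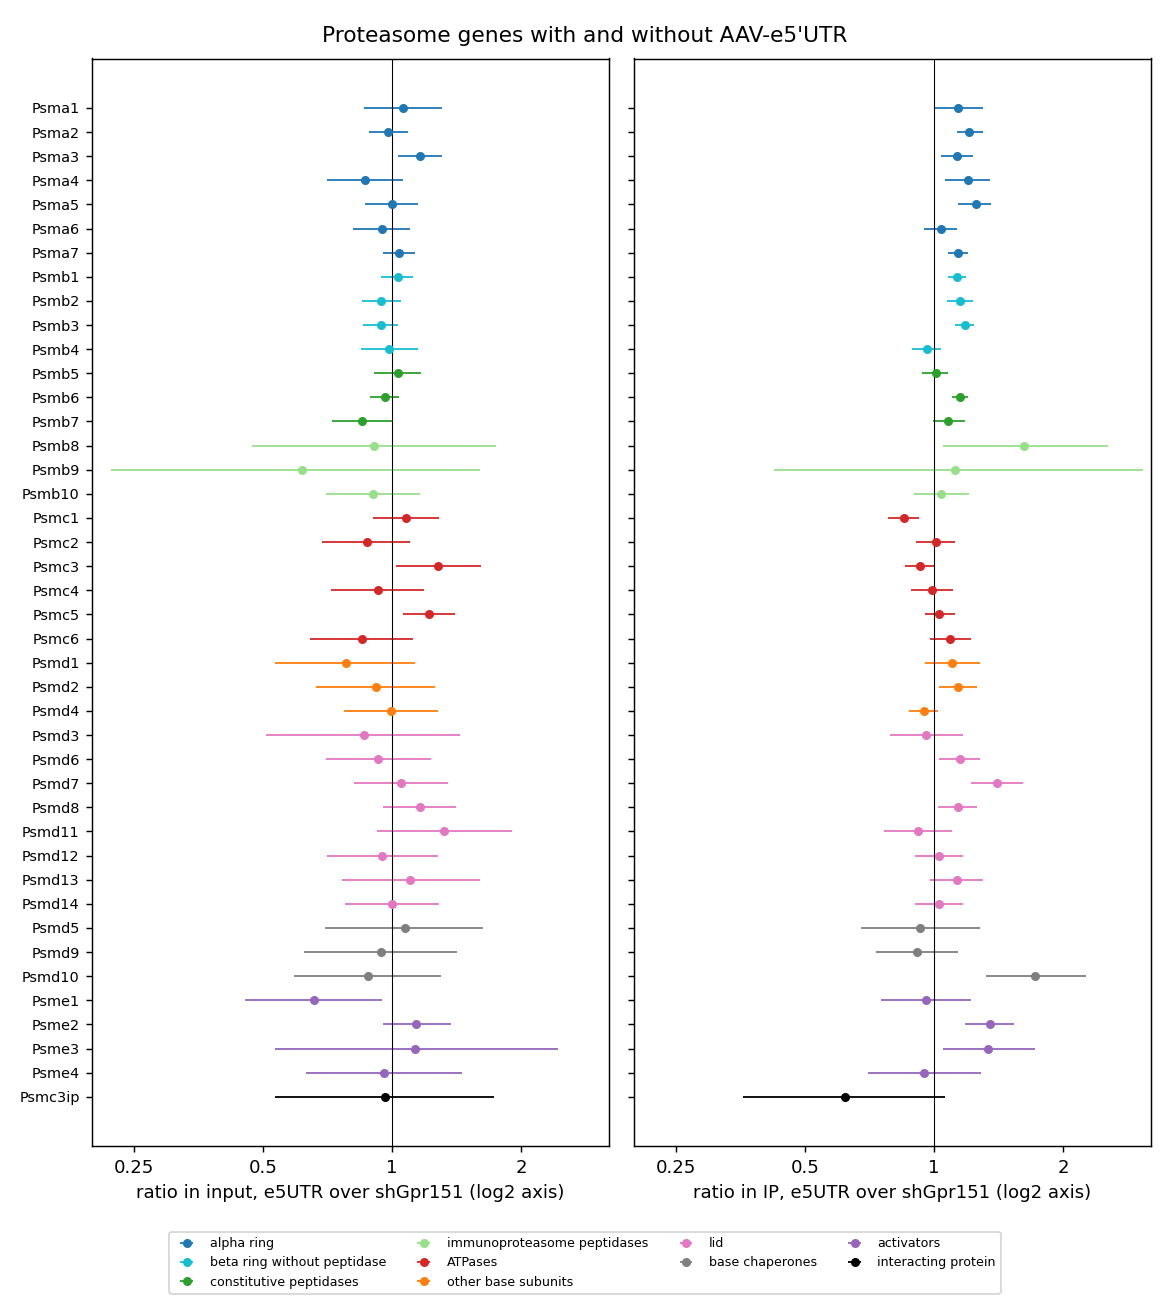
Ratio of the pool with e5UTR to the pool with AAV-shGpr151 alone for each proteasome gene, in input (left) and IP (right), on a log2 axis with exact binomial 95% intervals. In IP 13 of 14 core genes lie above 1, whereas the ATPases lie on both sides of it.

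The ratio of IP to input could thus be compared between the treatments, as the difference of the log2 ratios with a counting interval and no replicate check. The interval lay above 0, a larger ratio with e5UTR, for 10 members (6.19% of genes): Psma2, Psma4, Psma5, Psmb1, Psmb2, Psmb3, Psmb6 and Psmb7 of the core, Psmd7 of the lid and the chaperone Psmd10. Psmb1 was only just among them (0.14, 0.00 to 0.28). In a fit with the 12 columns as samples, which compares reads and not conditions, Psmb3 and Psmb6 were called larger in IP, where 1.57% of all genes were called larger and 3.54% smaller. The counting interval lay below 0 for 3 members (8.35% of genes), all ATPases: Psmc1 (-0.34, -0.63 to -0.06), Psmc3 (-0.47, -0.81 to -0.12) and Psmc5 (-0.24, -0.47 to -0.01). Members have more counts than most genes and narrower intervals here as well, so the shares of members and of genes are not like for like. Psmd10 had the largest difference (0.97, 0.31 to 1.63), with an IP over input ratio of 0.579 in shGpr151 and 1.13 with e5UTR. Psma4 had 0.47 (0.14 to 0.81), from 0.855 to 1.19, and Psmb7 0.35 (0.09 to 0.60), from 1.21 to 1.54. The gap between the treatments was 0.24 at the median member, and 6 members had ratios on opposite sides of 1.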

How the data were processed

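RNA of 12 libraries in 4 groups of 3 was measured by nanopore cDNA sequencing, from a PCR-based barcoding kit per the labels' protocols. The values the authors deposited are estimated counts of each gene, as whole numbers. Salmon, minimap2 and the builds GRCm39 and mm39 appear in the submitters' processing notes; versions, settings and the use of strand are not given in these sources. Symbols were found for 13191 of 14675 gene IDs (89.9%). The members, gene lists and tests were chosen with earlier results of these data known.

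The 3 columns of each group were compared by chi-square over genes with at least 30 counts and summed to pools of 2954427, 2928926, 4145071 and 4549204 counts (input and input with e5UTR, IP and IP with e5UTR). The 4 pools were fitted with edgeR 4.0.16 in R 4.3.3 (quasi-likelihood test, TMM, filterByExpr with a minimum count of 10 and total of 15, fraction as the only term, threshold 0.05), which left 11343 genes at a biological coefficient of variation of 10.4%. The pools of a fraction differ in treatment, so this difference is part of the spread, and p-values reflect the spread of these pools alone. The fit was tried on simulated pools with 89 genes changed 2-fold and 92 changed 4-fold. It called 60.7% and 93.5% of these in the true direction, and 1.41% of its calls were false. Far fewer genes differed there than were called here, so the simulation does not check the TMM scale. A count of 0 (floor of 3 counts) allows 1.39 CPM in the input pools and 0.53 and 0.487 CPM in the IP pools. PCR reads are not independent molecules, so intervals and floors cover counting error only. Alternatives were DESeq2 1.42.0, limma-voom (limma 3.58.1), other scalings and filters, the 12 columns as samples, and leaving out each column or pool. Named genes follow a rule by subcomplex: peptidases, ubiquitin receptors and the deubiquitinase, the highest and lowest called members, and members past 1.5-fold with e5UTR. Other members that illustrate a group, and Adrm1's columns, were chosen after their values were seen. Promoter windows are RefSeq's for GRCm38.p6, another build than the authors', and no position was carried over. Pseudogene copies of Psmb5, Psmb6 and Psmb7 and the near copy of Psme2, Psme2b, could share reads with these genes.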

Additional observations from a re-analysis of the deposited data

Results flagged for a closer look

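In a fit with the 12 columns as samples, the effect of e5UTR differed between IP and input for 2 proteasome genes, by the interaction term (edgeR's quasi-likelihood test, Benjamini-Hochberg over all genes). It was 0.33 ± 0.09 larger in IP on the log2 scale for Psmb3 (adjusted p = 0.022) and 0.26 ± 0.07 larger for Psmb6 (adjusted p = 0.024). Over all 8085 genes of that fit, 1.57% were called larger and 3.54% smaller in IP. The columns of a group are close to parts of 1 pool of reads, so these p-values compare reads and do not show a difference between the conditions.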

How the results depend on the processing

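Scaled by library total, 6428 genes were higher and 2366 lower in IP, 36 members were higher and 0 lower, the members' median was 1.19 and all 14 core genes were higher. On that scale 11 members changed sign: Psmb8 0.59, Psmd5 0.22, Psme4 0.35, Psmd10 0.64, Psme1 0.53, Psma1 0.75, Psme2 0.33, Psma3 0.46, Psmb2 0.67, Psma2 0.72 and Psma7 0.72. The members' median was 0.29 with DESeq2's size factors, DESeq2's Wald test and limma-voom, 0.37 with no filter and 0.28 with a mean count of at least 30. DESeq2 called 1927 genes higher and 2 members lower. Without chaperones and Psmc3ip 3 members were lower. With the 12 columns as samples, and likewise with a replicate block, the members' median was 0.28, 8 members were lower and 7 core genes higher. The replicate numbers did not pair the columns: of 18 same-numbered pairs 5 correlated above 0.1 (range -0.32 to 0.33).

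Without 1 pool the members' median ran from 0.23 to 0.32, members lower from 2 to 4, core genes higher from 0 to 7 and the regulatory minus core difference from 0.71 to 0.89. Without 1 column the median ran from 0.26 to 0.36. For e5UTR in input, leaving out 1 column gave 0 to 3 members lower past 1.5-fold, 1 to 3 with intervals above 1, 0 to 2 below 1, and a regulatory sum of 1.02 to 1.12. In IP it gave 0 to 1 lower, 13 to 18 above 1 and 1 to 3 below 1. In input, genes past the fold were 2513 higher and 2407 lower with no filter, 423 and 402 with a mean count of at least 30, 708 and 551 at 2-fold, and 2468 and 2550 at the lowest fold tried, where 2 members were higher; at 2-fold 0 members were lower. In IP they were 1880 and 2094, 220 and 391, 254 and 396, and 2070 and 2486, with 0 members either way at 2-fold and 5 higher at the lowest fold. Without chaperones and Psmc3ip 1 member was higher and 0 lower. Intervals below 1 in IP numbered 2 by library total and 4 with DESeq2's size factors, where the sums were 1.08 and 0.98. The cause of these changes was not tested beyond the setting itself. Psma4, at 0.01, was at -0.01 with a mean count of at least 30 and at -0.00 with DESeq2 and with its size factors. Without 1 column or pool the sign also changed for Psma4 (-0.08 to 0.16), Psma5 (-0.03 to 0.20), Psmb8 (-0.58 to 0.02), Psmb10 (-0.03 to 0.12), Psmc5 (-0.02 to 0.26) and Psmd10 (-0.59 to 0.11), none of them called in those fits. Of the single-gene values under the alternatives, 924 kept direction and side of the threshold, 33 lost the call, 39 gained it and 28 changed sign.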
